A study of Mus musculus with 6 samples.

Results

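The 10 genes described here encode most subunits of the NMDA receptor (NMDAR) and the proteins that make, break down and carry its co-agonist D-serine: Grin2a, Grin2b, Grin2c, Grin2d, Grin3a, Grin3b, Grina, Srr, Dao and Slc7a10. They were taken by gene symbol from 17072 genes that the array annotation ties to a probeset of 1 gene, and each of the 10 had 1 such probeset. The signals came from the hypothalamus of female C57Bl/6J mice aged 21 weeks, hybridised to 6 arrays of the type Affymetrix Mouse Gene 1.0 ST. The mothers of the CGP group (3 arrays) received the NMDAR antagonist CGP 39551 by mouth at 5 mg/kg of body weight from the start of pregnancy to the end of weaning, and the CON group (3 arrays) was made up of age-matched controls. Developmental NMDAR antagonism had thus ended at weaning, and the tissue was taken in adulthood. RNA of 18 mice was pooled in each group. The methods for the male arrays describe 1 pool per group put on 3 arrays. If the same was done for the females, which is not stated, the 3 arrays of a group are technical repeats, and in either case the p-values measure only the spread between arrays. Per the methods for the male mice of the study, the mice were fasted and then killed with xylazine and ketamine, of which ketamine is itself an NMDAR channel blocker, and whether this held for the females is not stated.

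NMDARs are glutamate-gated cation channels built of 4 subunits, with an obligatory pair encoded by Grin1 that binds glycine or D-serine and a further pair that binds glutamate (NR2A to NR2D, from Grin2a to Grin2d) or glycine (NR3A and NR3B, from Grin3a and Grin3b). A channel with an NR2 pair opens only when both sites are filled and the membrane is depolarised, and the NR2 type sets how slowly it closes and how strongly magnesium blocks it. Serine racemase (Srr) makes D-serine from L-serine, D-amino acid oxidase (Dao) breaks it down in peroxisomes, and the exchanger Asc-1 (Slc7a10) carries D-serine and glycine across the cell membrane. In the hypothalamus, NMDARs take part in the control of feeding, of gonadotropin release and of the stress axis. Grin1 was not analysed here.

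No gene of the 10 was called as higher or lower in CGP mice. A gene was called when its adjusted p in limma was under 0.05, and 0 of 10 passed, beside 51 of all 18239 probesets tested (0.28%), of which 28 were higher and 23 lower in CGP. At so small a share, 0 of 10 does not set these genes apart from the others, nor does it show that they were unchanged. The 2 genes that came nearest were Dao, which was 1.14-fold lower in CGP, and Grin2d, which was 1.09-fold higher, and these were the only ones of the 10 whose CGP and CON arrays did not overlap. Of the 10, 5 were higher and 5 lower in CGP, with a median difference of 0.0059 on the log2 scale beside -0.0031 over all tested probesets. The median size of the difference regardless of sign was 0.062 for the 10 genes and 0.045 over all tested probesets. Signals are log2 values, on which a difference of 1 is a 2-fold change, and every difference is CGP minus CON.

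RefSeq (GRCm38.p6) promoter windows of 300 bases, reaching from 250 bases before to 50 after a transcription start, were at hand for 6 of the 10 genes in 8 windows. Those of Dao and Grin2d are printed because their arrays lay apart, in opposite directions, with GC boxes (GGGCGG on either strand) in capitals. The Dao window lies at chr5:114003485-114003784 on the plus strand and is the first of 3 windows of this gene, and the Grin2d window lies at chr7:45866632-45866931 on the minus strand.
Dao: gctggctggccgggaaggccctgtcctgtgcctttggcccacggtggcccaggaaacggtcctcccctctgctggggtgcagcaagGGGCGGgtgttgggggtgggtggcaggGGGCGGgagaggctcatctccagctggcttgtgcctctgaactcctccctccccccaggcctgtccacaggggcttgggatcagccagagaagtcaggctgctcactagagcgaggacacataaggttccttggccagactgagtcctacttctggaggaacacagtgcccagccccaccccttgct
Grin2d: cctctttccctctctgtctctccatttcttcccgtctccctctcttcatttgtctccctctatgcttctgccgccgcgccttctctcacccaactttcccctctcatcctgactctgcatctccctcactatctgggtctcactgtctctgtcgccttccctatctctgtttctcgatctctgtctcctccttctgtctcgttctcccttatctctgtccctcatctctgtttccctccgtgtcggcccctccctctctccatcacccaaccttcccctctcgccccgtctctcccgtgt
The Dao window held 2 GC boxes, 6 CpG dinucleotides and 65.3% GC. The Grin2d window held 0 GC boxes, 12 CpG dinucleotides and 56.0% GC, and much of its printed strand is a run of cytosines and thymines. Over all 32841 windows the medians were 52.7% GC and 7 CpG dinucleotides, and 35.7% held a GC box, as did 4 of the 8 windows of these genes. A cAMP response element (TGACGTCA, either strand), the site of the factor CREB, was in 0 of the 8 windows and in 1.79% of all windows, and an E-box (CACGTG, either strand) was in 1 of 8 and in 7.15%. The arrays do not tell which start was used, and these letters are a description of the windows alone.

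The NR2 subunits decide the glutamate affinity and the kinetics of the receptor, and in the forebrain NR2B and NR2D are typical of the developing and NR2A of the mature brain. Grin2d had signals of 9.14, 9.07 and 9.07 in CGP replicates 1, 2 and 3, against 9.03, 8.99 and 8.88 in the CON replicates. All CGP arrays thus lay above all CON arrays, but the lowest CGP array lay only 0.041 above the highest CON array. The means were 9.09 ± 0.037 in CGP and 8.97 ± 0.075 in CON (SD, n = 3 arrays each). The difference was 0.13 (standard error 0.047, 95% interval 0.019 to 0.235), with an unadjusted limma p of 0.0267 and an adjusted p of 0.409. Among all tested probesets, 7.59% had CGP arrays wholly above the CON arrays and 11.1% had an unadjusted p under 0.05 in either direction, and the counts of 1 and 2 among the 10 genes differed from these shares by less than 1 gene.

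Grin2c encodes NR2C, known best from cerebellar granule cells and also found in thalamus and in astrocytes. It had signals of 8.88, 8.92 and 8.91 in CGP, against 8.90, 8.67 and 8.79 in CON. The CGP arrays were closely grouped at 8.90 ± 0.024 and the CON arrays more spread at 8.79 ± 0.116 (SD, n = 3 arrays each), and CON replicate 1 lay within the CGP values. The difference was 0.12 (standard error 0.058, 95% interval -0.019 to 0.249, adjusted p = 0.512 by limma). With 1 array left out it ran from 0.056 without CON replicate 2 to 0.173 without CON replicate 1, with adjusted p of 0.780 and 0.447 by limma.

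Grin2a, which encodes the NR2A of mature synapses, had signals of 9.07, 8.79 and 9.03 in CGP, against 9.02, 9.10 and 8.89 in CON. It spread over 0.31 on the 6 arrays, more than any other of the 10 genes, and its low CGP value came from CGP replicate 2. The difference was -0.042 (standard error 0.081, 95% interval -0.23 to 0.15, adjusted p = 0.888 by limma), and without CGP replicate 2 it was 0.045, with the opposite sign. Grin2b, which encodes NR2B, had signals of 10.07, 9.99 and 10.01 in CGP, against 9.94, 10.02 and 9.98 in CON. The arrays of both groups overlapped, and the difference was 0.045 (standard error 0.040, 95% interval -0.048 to 0.138, adjusted p = 0.717 by limma). With CGP replicate 1 left out it was 0.020.

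The exchange of NR2B for NR2A after birth is the best known developmental change of the receptor, and the difference Grin2a minus Grin2b within each array asks whether the 2 genes moved apart. It was -1.06 ± 0.123 in CGP and -0.97 ± 0.098 in CON (SD, n = 3 arrays each). The shift between groups was -0.087, smaller than either SD (two-sided exact permutation test over 20 assignments, p = 0.5, where 0.1 is the smallest p that 3 against 3 arrays can give). With 1 array left out, the shift ran from -0.14 without CON replicate 3 to -0.016 without CGP replicate 2. The size of this within-array difference depends on the probes of each gene and is no ratio of the 2 transcripts.

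The NR3 subunits bind glycine and, when built into the receptor, lower its calcium permeability. Grin3a had signals of 9.79, 9.75 and 9.79 in CGP, against 9.78, 9.81 and 9.78 in CON. This was the narrowest spread of the 10 genes, 0.066 over the 6 arrays, and the difference of -0.017 (standard error 0.035, 95% interval -0.097 to 0.063, adjusted p = 0.894 by limma) was smaller than its error. Grin3b had signals of 6.92, 7.06 and 7.03 in CGP, against 7.06, 7.10 and 7.08 in CON. Only CGP replicate 2 reached into the CON values, and the difference was -0.074 (standard error 0.045, 95% interval -0.178 to 0.030, adjusted p = 0.583 by limma). Without CGP replicate 1 it was -0.032.

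Grina, despite its name, encodes a membrane protein of the family of cell death inhibitors and not a channel subunit. It had signals of 13.01, 13.03 and 12.98 in CGP, against 12.98, 12.93 and 12.95 in CON. The groups overlapped only at CGP replicate 3 and CON replicate 1, and the difference was 0.054 (standard error 0.036, 95% interval -0.030 to 0.138, adjusted p = 0.625 by limma).

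**Figure D1:**
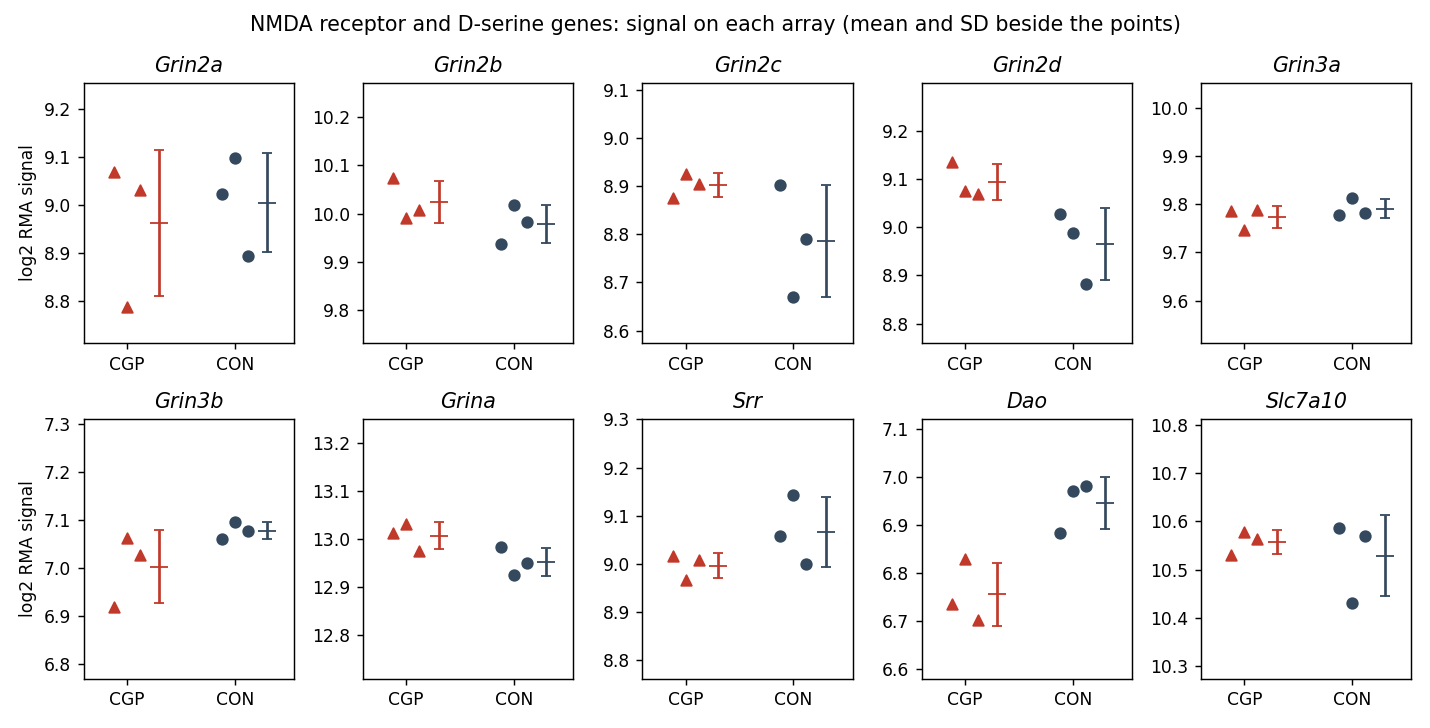
Signal of each of the 10 genes on each array. The vertical axes are log2 RMA signals, all spanning the same height but at different levels, triangles are the 3 CGP arrays, circles the 3 CON arrays, and the crossbars beside them the mean and SD of each group. Grin2d had its 3 CGP arrays above its 3 CON arrays and Dao had them below, while the other 8 genes overlapped.

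Dao encodes the enzyme that degrades D-serine, which in the brain is known mainly from glia of the hindbrain and cerebellum. It had signals of 6.74, 6.83 and 6.70 in CGP, against 6.88, 6.97 and 6.98 in CON. All CGP arrays lay below all CON arrays, with a gap of 0.054 between the nearest pair, as was so for 9.95% of all tested probesets. The means were 6.76 ± 0.066 in CGP and 6.95 ± 0.054 in CON (SD, n = 3 arrays each). The difference was -0.19 (standard error 0.047, 95% interval -0.30 to -0.080), with an unadjusted limma p of 0.0040 and an adjusted p of 0.245. Dao was 0.85 above the signal of 6 under which probesets were filtered out, and Grin3b 1.04 above it. The files hold no detection call, and a change in signal this close to the filter can understate the change in transcript.

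Srr encodes serine racemase, which forms D-serine in neurons and astrocytes. It had signals of 9.02, 8.97 and 9.01 in CGP, against 9.06, 9.14 and 9.00 in CON. CON replicate 3 lay within the CGP values, and the difference was -0.070 (standard error 0.045, 95% interval -0.174 to 0.033, adjusted p = 0.606 by limma). Leaving out CON replicate 2 gave -0.032, and leaving out CON replicate 3 gave -0.104. Slc7a10 had signals of 10.53, 10.58 and 10.56 in CGP, against 10.59, 10.43 and 10.57 in CON. Its low value came from CON replicate 2 alone. The difference was 0.029 (standard error 0.048, 95% interval -0.083 to 0.140, adjusted p = 0.868 by limma), and without CON replicate 2 it was -0.020.

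Since Srr forms and Dao degrades D-serine, the within-array difference Srr minus Dao was also compared. It was 2.24 ± 0.090 in CGP and 2.12 ± 0.091 in CON (SD, n = 3 arrays each). The arrays of the groups overlapped, and the shift of 0.12, larger than either SD, did not pass the test (two-sided exact permutation test, p = 0.3, smallest possible 0.1). It was 0.15 with quantile normalisation repeated (exact permutation p = 0.1, the smallest possible), and with 1 array left out it ran from 0.066 without CON replicate 3 to 0.17 without CGP replicate 2.

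The intervals bound the difference in signal, and for Dao and Grin3b, near the filter, the difference in transcript may be larger. The standard errors of the 10 genes lay between 0.035 and 0.081 on the log2 scale. The 95% intervals reached at most a 1.19-fold rise, for Grin2c, and a 1.23-fold fall, for Dao, and none held the 1.4-fold change that was the threshold for DEGs in the methods of the male arrays. These intervals cover the spread between arrays and not that between mice.

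**Figure D2:**
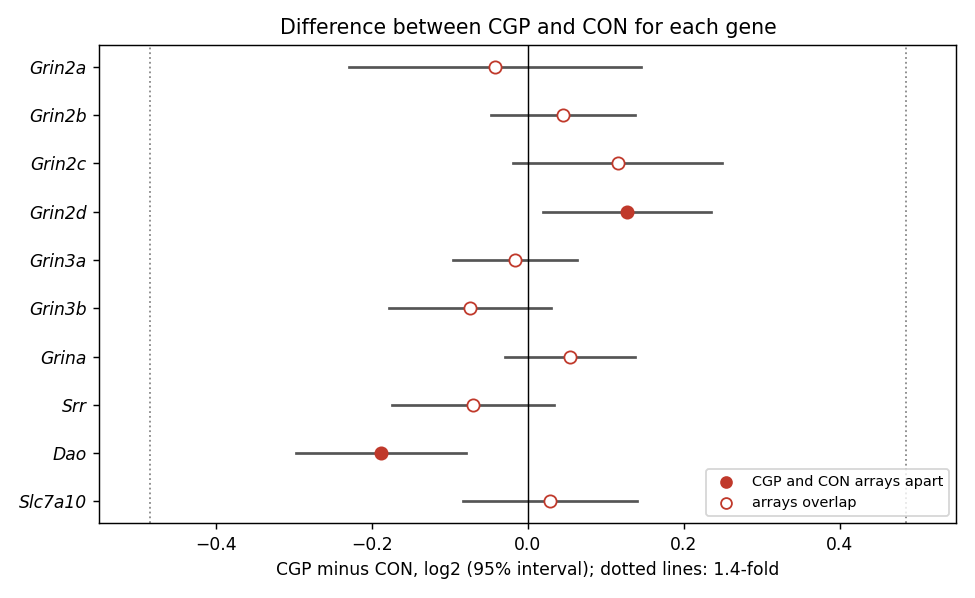
Difference between CGP and CON for each gene. The horizontal axis is CGP minus CON on the log2 scale, points are differences and bars their 95% intervals from limma, filled points mark genes whose 3 CGP and 3 CON arrays did not overlap, and dotted lines mark a 1.4-fold change either way. The intervals of Dao (-0.30 to -0.080) and Grin2d (0.019 to 0.235) did not hold 0, and no interval reached a dotted line.

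No array was high or low for the 10 genes as a whole. CON replicate 2 held the highest signal of 4 genes and the lowest of 3, and the mean deviation of the 10 genes from their own means lay between -0.018 and 0.015 on each of the 6 arrays. On the second principal component of all tested probesets (21.7% of the variance), CGP replicate 1 stood apart at -9.67, with the other arrays between -0.013 and 4.78. Without it, Dao differed by -0.18 and Grin2d by 0.11, with adjusted p of 0.257 and 0.398 by limma. Without CON replicate 3, Grin2d differed by 0.086 (adjusted p = 0.563 by limma). The array medians lay between 8.19 and 8.21.

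**Figure D3:**
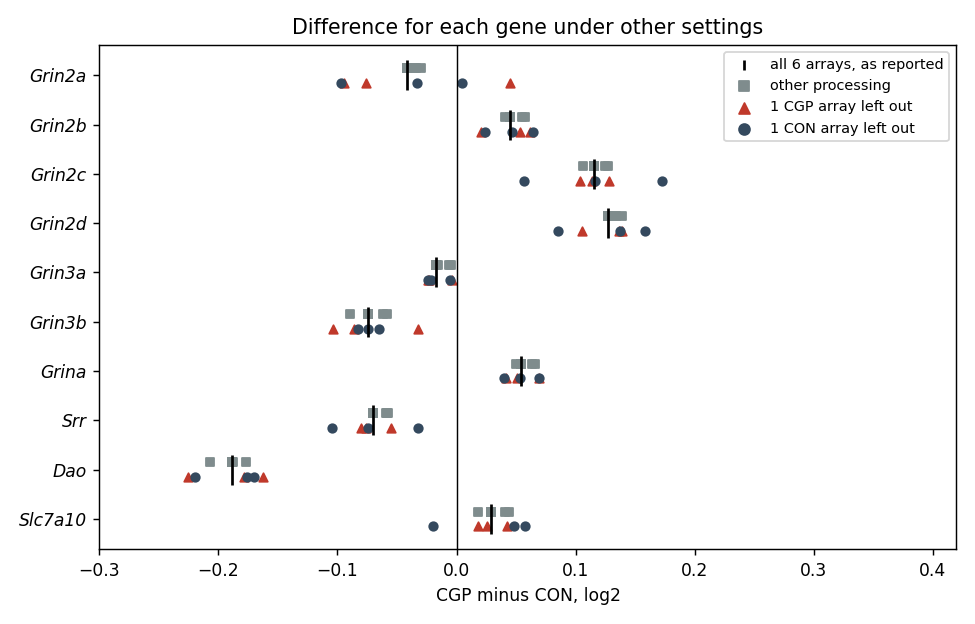
Difference between CGP and CON for each gene under 15 other settings. The horizontal axis is CGP minus CON on the log2 scale, black ticks are the values from all 6 arrays, squares are other ways of processing, triangles have 1 CGP array left out and circles 1 CON array left out. Dao stayed between -0.23 and -0.16 and Grin2d between 0.086 and 0.158, while Grin2a and Slc7a10 crossed 0 when 1 array was left out.

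The genes that supply, scaffold and follow the receptor gave no call either. In 6 lists with 60 genes, 55 were tested, 0 rose and 0 fell, and their median difference was -0.0094. For L-serine synthesis and its exchange with glycine, all 5 genes were tested and 4 were lower in CGP, with the largest difference for Psat1, phosphoserine aminotransferase (-0.17, standard error 0.042, adjusted p = 0.230 by limma). In the list of 9 genes for serine and glycine transport, 6 were lower. The largest difference in it was that of Slc7a11 (-0.21, standard error 0.042, adjusted p = 0.132 by limma). Slc7a11 is the cystine and glutamate exchanger and not itself a serine or glycine transporter. The arrays of both groups lay apart for Psat1 and for Slc7a11. This was so for 19 of the 55 genes in the 6 lists, a larger share than the 17.5% of all tested probesets. These lists too were chosen with earlier results of these data known, so nothing is concluded from the larger share.

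The glycine cleavage system, which removes the other co-agonist, had 4 genes tested, with the largest difference for the glycine decarboxylase Gldc (0.055, adjusted p = 0.630 by limma). Of 8 listed genes that handle D-aspartate, an NMDAR agonist, or belong to the kynurenine pathway, from which the antagonist kynurenate comes, 6 were tested. Kyat1, a kynurenine aminotransferase, had the largest difference of these (-0.046, adjusted p = 0.769 by limma). Of 18 listed genes for scaffold and trafficking proteins, 17 were tested and 9 were higher in CGP, with the largest difference for Shank3, which links the postsynaptic scaffold to actin (0.21, standard error 0.045, adjusted p = 0.169 by limma). Of 16 listed genes for signalling proteins and kinases, 14 were tested and 6 were higher, with the largest difference for Ptk2b, the tyrosine kinase PYK2 (0.14, standard error 0.040, adjusted p = 0.292 by limma). With a trended and robust prior in limma, Psat1, Slc7a11 and Shank3 passed the adjusted p (0.0221, 0.0037 and 0.0132), and none of the 10 genes did.

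Some markers of other tissues that a hypothalamic block can hold did differ between the pools. Of 89 listed marker genes of 10 tissues and cell types, 82 were tested, 6 rose and 6 fell (14.6%). The lists were chosen with earlier results of these data known. This share therefore cannot be weighed against the 0.28% called over all tested probesets. In such bulk tissue, fewer cells of a type and less RNA per cell cannot be told apart. The neuropeptide genes Oxt, with a mean of 12.22 in CGP and 12.16 in CON, and Hcrt, with 12.54 and 12.51, were bright, as the hypothalamic label implies. The anterior pituitary genes Gh, with 13.66 in CGP and 13.27 in CON, and Prl, with 13.32 and 13.22, were brighter still. Signals of different probesets do not give the share of each tissue in the pools. Of 13 hypothalamic markers tested 0 were called, with the largest difference for Nkx2-1 (-0.14, adjusted p = 0.422 by limma), and the summed linear signal of the list ran from 22560 to 23303 in CGP and from 22450 to 23666 in CON. The submitters' treatment text speaks of adrenal glands, but the adrenal genes Cyp11b1 and Cyp11a1, looked up after the values had been seen, lay between 5.88 and 6.26 on every array, near the filter.

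Of the thalamic markers, which lie next to the hypothalamus and where Grin2c and Grin2d are also expressed, all 10 were higher in CGP. Ptpn3 (0.36, adjusted p = 0.0249 by limma) and Prkcd (0.27, adjusted p = 0.0467) rose. The summed signal of the list was 13162 to 13469 in CGP and 11588 to 11846 in CON. Midbrain and hindbrain markers had a median of -0.22 over 8 tested genes, of which 6 were lower and the midbrain dopamine transporter Slc6a3 fell (-0.39, adjusted p = 0.0165 by limma). The hindbrain genes of this list differed by 0.028 (Hoxb3), 0.14 (Hoxb5), -0.014 (Slc6a5) and -0.22 (Tph2). Its remaining genes differed by -0.21 (En1), -0.25 (Th) and -0.35 (Chrna6), and apart from Slc6a3 no gene of the list was called. Cerebellum markers, from the other region known for Dao, had a median of 0.014, with 4 of 7 higher in CGP and 0 called. The arrays lay apart only for Zic1 (0.24) and Zic2 (0.11). The others differed by 0.071 (Pcp2), 0.014 (Car8), -0.0026 (Cbln3), -0.018 (Cbln1) and -0.14 (En2). The summed signal of the list, in which bright genes such as Zic1 weigh most, was 5536 to 5603 in CGP and 5072 to 5348 in CON. The midbrain and hindbrain markers had a summed signal of 3546 to 3685 in CGP and 4375 to 4438 in CON. The faintest of them, Tph2, stood at 6.11 in CGP and 6.33 in CON. Of the 9 astrocyte markers 8 were lower in CGP and 0 were called, with the largest difference for S100b (-0.14, adjusted p = 0.271 by limma) and summed signals of 27511 to 29162 in CGP and 29003 to 29517 in CON. The part of these markers in the values of Grin2c, Grin2d and Dao was not tested.

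Meningeal markers had a median of -0.29, and 5 of 8 fell in CGP: Prg4 (-0.57), Ogn (-0.44), Fmod (-0.36), Slc6a20a (-0.32) and Igf2 (-0.25), with adjusted p between 0.0072 and 0.0467 by limma. Their summed signal was 4957 to 5181 in CGP and 6113 to 6262 in CON. Choroid plexus markers had a median of 0.21, and Ttr (0.84) and Slc4a5 (0.40) rose, with a summed signal of 8297 to 8548 in CGP and 5194 to 5479 in CON. Anterior pituitary markers had a median of 0.12, with 5 of 6 higher in CGP, and Gh (0.39) and Lhb (0.46) rose. Prl (0.10), Fshb (0.15), Cga (0.044) and Tshb (-0.037) were not called. The summed signal of the list, in which the bright Gh and Prl weigh most, was 27049 to 27892 in CGP and 22897 to 23834 in CON. Pomc, the precursor gene of ACTH in both pituitary and arcuate neurons, was in no list and was looked up after its values had been seen. It stood at 10.92, 11.02 and 10.89 in CGP, against 9.38, 9.35 and 9.43 in CON, and its difference of 1.56 was the largest rise of all tested probesets. The largest difference in each of the lists without a call was that of Nefl among 8 neuron markers (-0.094, adjusted p = 0.409 by limma), of Nrn1 among 5 telencephalon markers (0.13, adjusted p = 0.266) and of Zic1 among 7 cerebellum markers (0.24, adjusted p = 0.0997). Their part in the values of the 10 genes was not tested.

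**Figure D4:**
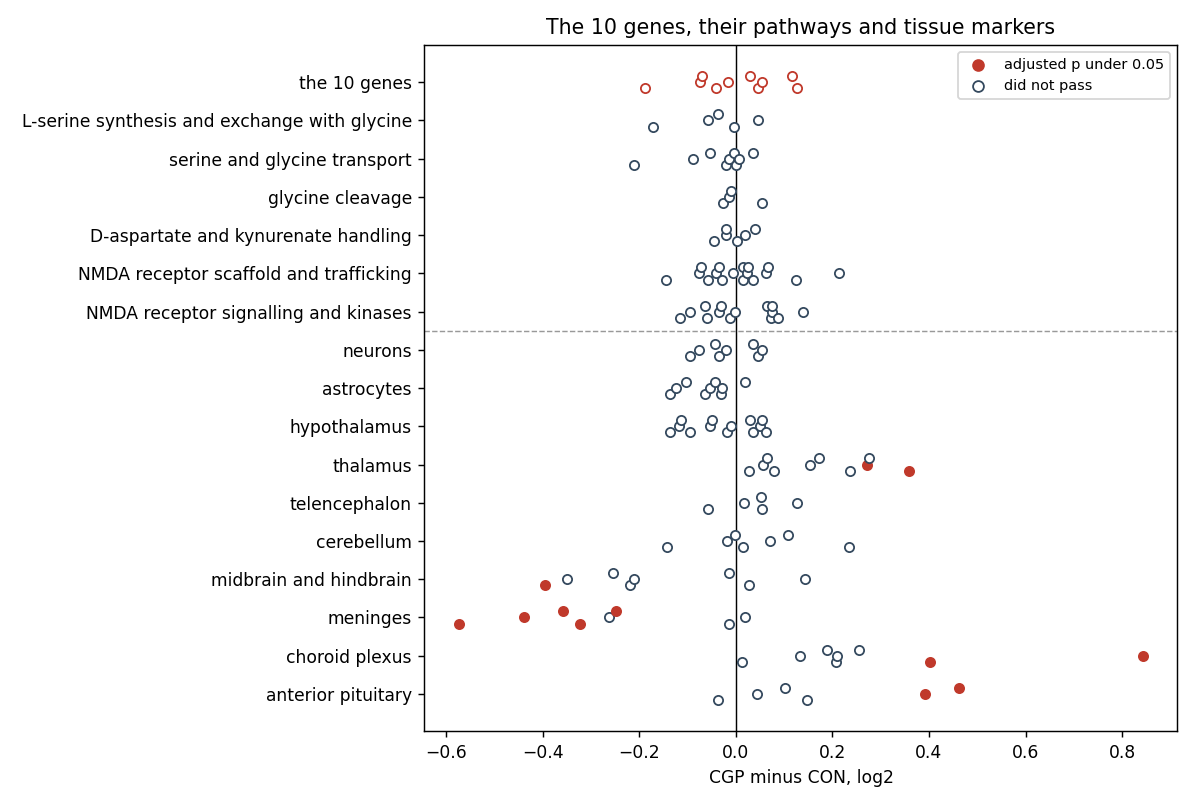
Differences of the 10 genes, of 6 lists of their pathways and of 10 lists of tissue and cell type markers. The horizontal axis is CGP minus CON on the log2 scale, each point is 1 gene, moved up or down only to part overlapping points, filled points passed an adjusted p of 0.05 and open points did not, and the dashed line parts pathway lists from marker lists. The 10 genes lay between -0.19 and 0.13 with no filled point, and the 12 filled points all belong to marker lists.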

How the data were processed

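Pooled hypothalamic RNA of CGP and CON females was measured on 6 arrays. The authors deposited 1 table of log2 signals of 28471 probesets, made per their processing notes with RMA and Partek, in versions that are not stated. The methods of the male arrays describe RMA as background correction, quantile normalisation and median polish, which sets all arrays to 1 distribution. Arrays agreed at r of 0.996 to 0.998 over tested probesets, and no 2 arrays held identical values.

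The platform annotation gave 1 gene for 18690 probesets (several for 1163, none listed for 8618), and 18620 matched RefSeq by Entrez identifier. Probesets with a mean below 6 (451) were left out and 18239, of 16663 genes, were fitted with lmFit and eBayes (limma 3.58.1, R 4.3.3), with 2 groups and no covariate, two-sided, and Benjamini-Hochberg adjustment over all of them. The 1.4-fold threshold follows the male arrays. Of each list, genes past the adjusted p were named, or otherwise that with the largest difference. Outside this rule, Oxt and Hcrt were named for their bright signals. All tested genes of the midbrain and hindbrain, cerebellum and anterior pituitary lists were also named. Genes absent from the 1-gene annotation were not analysed here. Summed signals add unlogged values over a list. The fits were tested on simulated data. The members, lists, tests and alternatives were chosen with earlier results of these data known.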

Additional observations from a re-analysis of the deposited data

How the results depend on the processing

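Over 15 other settings of each of the 10 genes, 147 of 150 values kept their direction and 0 passed the adjusted p, of which the lowest was 0.167 (Dao, quantile normalisation repeated, range 0.167 to 0.508). The exceptions in direction were Grin2a, at 0.045 without CGP replicate 2 and 0.0045 without CON replicate 2 (range with 1 array left out -0.097 to 0.045), and Slc7a10, at -0.020 without CON replicate 2 (range -0.020 to 0.058). Dao had an unadjusted limma or ANOVA p under 0.05 in 15 of 15 settings and Grin2d in 12 of 15. All settings reuse the same arrays, so these counts are no independent support. In the main fit, 11.1% of all tested probesets had an unadjusted limma p under 0.05. The mean over a gene's probesets gave no other value, since each gene had 1.

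Counts of calls depended more on the setting. Of all probesets, 51 were called, against 5 with all probesets in the fit, 249 with a trended and robust prior, 77 with array weights, 6 with ordinary ANOVA, 6 with the replicate block, 6 to 10 with 1 array left out and 9 with a 1.4-fold change as well. Of the marker genes 12 were called, against 1 with all probesets in the fit, 23 with the trended and robust prior, 0 with ANOVA, 2 with the replicate block and 1 to 3 with 1 array left out. Of the pathway genes 0 were called, against 3 with the trended and robust prior. The cause was not tested. Deviations of arrays with the same replicate number correlated at 0.078, -0.18 and 0.11, and 1 of 3 CGP arrays correlated best with its own number. These values showed no pairing by number, but 3 arrays per group cannot exclude it. In the paired analysis by number, the within-array differences were tested by flipping signs over the 3 pairs. This exact permutation test gave p of 0.75 for Grin2a minus Grin2b and 0.5 for Srr minus Dao. Its smallest possible p lies above 0.1, so it could not have called a shift. The spread between mice cannot be measured on pooled RNA, and differences of genes near the filter, as for Dao and Grin3b, can be understated.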
